A study of Mus musculus with 16 samples.

Results

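Transportins and importin beta-like receptors are nuclear import receptors that bind their cargo directly, without an importin alpha adaptor. The 10 genes Tnpo1, Tnpo2, Tnpo3, Ipo4, Ipo5, Ipo7, Ipo8, Ipo9, Ipo11 and Ipo13 were taken by symbol from a table of 24421 genes, and their levels were described in 16 RNA sequencing libraries. Membership used gene names alone and no measured value, though the family was chosen with earlier results of these data known. All 10 passed the filter on low counts, as did 15641 genes of the table.

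The libraries were polyA RNA of dorsal root ganglia of the lumbar region, which hold the cell bodies of sensory neurons next to the spinal cord, from C57BL/6 mice at embryonic day 13.5. There were 4 importin α3 knockouts (KO_alpha3, libraries 42, 50, 75 and 81), 4 knockouts of the 3′UTR of importin β1 (KO_beta, libraries 398, 402, 406 and 411), 4 wild types of the first line (WT_alpha3, libraries 45, 54, 55 and 79) and 4 of the second (WT_beta, libraries 399, 401, 410 and 415). The labels give no promoter, Cre or breeding scheme for either line, and do not say whether each library is a separate embryo, so p-values measure the spread between these libraries. The submitters' design text states that the 8 wild types served both projects because of a gender bias, so each knockout was compared with all 8 and both knockout comparisons share these controls.

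Importin beta family receptors load cargo in the cytoplasm, pass through the nuclear pore and release the cargo in the nucleus when the small GTPase Ran, in its GTP-bound form, binds them. Importin β1, encoded by Kpnb1, carries most of its cargo through importin α adaptors, of which importin α3, encoded by Kpna4, is one. The receptors described here recognise signals on the cargo itself, such as the PY-NLS read by transportin 1 and transportin 2 or the arginine and serine rich domains read by transportin 3. In sensory neurons, importins are known from axons as well, where importin β1 takes part in retrograde injury signalling.

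Sequence can blur a comparison of near-identical genes, so the closest pairs of coding sequence were looked at first. Tnpo1 and Tnpo2, with 2694 and 2691 coding bases, matched at 74.8% of aligned bases, the highest of the 45 pairs. Ipo7 and Ipo8, with 3114 and 3030 coding bases, matched at 66.7%. The stretches below hold the longest identical run of each pair, in capitals, with flanking bases in lower case. They are read 5′ to 3′ on the coding strand from GENCODE transcripts on mm10, and they show how short the longest identical stretch is, at 26 bases for the transportins and 23 for Ipo7 and Ipo8.
Tnpo1: gtAAATACCAGCATAAGAACCTGCTCATtc
Tnpo2: gcAAATACCAGCATAAGAACCTGCTCATcc
Ipo7: gatTACTTTACAGACATGATGCCTCTtcta
Ipo8: gagTACTTTACAGACATGATGCCTCTcctg

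The Tnpo1 stretch lies in exon 14 at chr13:98858442-98858471 on the minus strand, and the Tnpo2 stretch in exon 14 at chr8:85050445-85050474 on the plus strand. The Ipo7 stretch crosses from exon 18 into exon 19, with the intron between, at chr7:110049058-110049612 on the plus strand. The Ipo8 stretch crosses the same pair of exons, 18 and 19, at chr6:148789152-148789809 on the minus strand. No 50-base word of any receptor transcript was found in another of the 10 genes. Outside the family, 10.5% of the Tnpo1 words also occur in Gm6493 and 4.39% of the Ipo5 words in Gm14857, so the assignment of those reads is uncertain. Of the Ipo4 exon bases, 55.3% overlap Gm49378 on the same strand, a gene that is no row of the count table. Tnpo2 shares 10.6% of its exon bases with A230103J11Rik on the opposite strand, and since the strand setting of the counting is not given in the sources used here, those reads cannot be assigned.

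On mm10, Tnpo1 lies on chromosome 13 from 98839019 to 98926384 and Ipo11 on the same chromosome from 106794439 to 106936958. Ipo4 and Ipo5 share chromosome 14, at 55625400 to 55635957 and at 120911224 to 120947999. Tnpo3 and Ipo8 share chromosome 6, at 29540827 to 29609887 and at 148770683 to 148831467. Tnpo2 lies on chromosome 8 from 85036915 to 85057583, Ipo7 on chromosome 7 from 110018274 to 110056609, Ipo9 on chromosome 1 from 135382312 to 135430499 and Ipo13 on chromosome 4 from 117894486 to 117914999.

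Library totals ran from 19682595 to 26873361 counts. Kpna4 was at 0.618 to 1.16 CPM, the gene's count relative to the scaled library total, in KO_alpha3 and at 68.2 to 82.8 CPM in the 8 wild types. Kpnb1 was at 510.1 to 556 CPM in KO_beta and at 384 to 524 CPM in the wild types, a gene-level value that cannot check a deletion in the 3′UTR. Libraries differed in cell content. The sum over 21 skeletal muscle markers was 44.1 to 319 CPM in KO_alpha3 and 124 to 1314 CPM in the wild types, and the sum over 23 spinal cord markers 12.0 to 23.6 CPM in KO_alpha3 and 17.1 to 157 CPM in the wild types. Over 13 liver markers it was 17.5 to 128 CPM in KO_alpha3 and 23.9 to 5384 CPM in the wild types, with a wild-type median of 239. A sum over 34 cell cycle genes ran from 1099 to 2470 CPM in KO_alpha3, from 1041 to 1366 CPM in KO_beta, from 992 to 3731 CPM in WT_alpha3 and from 1198 to 2453 CPM in WT_beta. Y-linked transcripts were absent or nearly so in 42 and 81 of KO_alpha3 and in all of WT_beta, and clearly present in the other 10 libraries, so the wild types of the 2 lines also differ in sex.

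All 10 receptors were detected in every library, from 39.9 CPM upwards. Levels can be compared between genes only per length, and CPM per kilobase of exon fell into 4 tiers. Tnpo2 averaged 28.0 ± 3.34 CPM per kb (SD, n = 16), Ipo5 27.7 ± 2.94 and Ipo4 26.8 ± 1.81, followed by Ipo9 at 23.1 ± 2.16 and Ipo13 at 20.5 ± 2.36. The ranges of neighbours within this upper tier overlapped. Tnpo1 at 10.8 ± 1.87 CPM per kb, Tnpo3 at 10.5 ± 0.572 and Ipo7 at 10.4 ± 0.83 formed a middle tier whose members overlapped each other. Ipo11 at 5.80 ± 0.503 and Ipo8 at 3.24 ± 0.151 CPM per kb each stood alone. The lowest Ipo13 library, at 17.1 CPM per kb, was above the highest Tnpo1 library, at 14.3. The lowest Ipo7 library, at 9.24, was above the highest Ipo11 library, at 6.66, and the lowest Ipo11 library, at 5.06, above the highest Ipo8 library, at 3.51. Exon lengths were taken over all annotated transcripts, so a gene whose long 3′UTR form is little used in these ganglia is understated. They ran from 4.21 to 8.23 kb in the upper tier and from 11.2 to 13.1 kb in the middle tier. Ipo11 had 7.88 kb and Ipo8 15.8 kb. Coding lengths ran only from 2691 to 3291 bases, so the tiers depend on the length used as divisor.

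**Figure D1:**
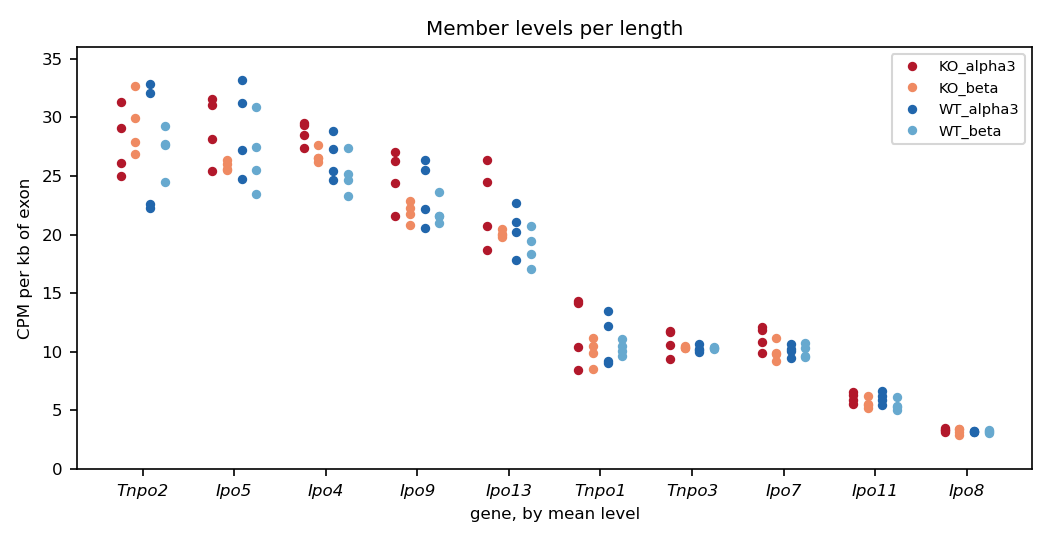
Level of each receptor transcript in CPM per kilobase of exon (vertical axis) for the 10 genes in order of mean level, with 1 point per library coloured by group. The 5 genes from Tnpo2 to Ipo13 lie above 17 CPM per kb in every library, and Ipo8 lies below 3.6.

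The transportins come first among the members. Tnpo1, which carries hnRNP proteins and other RNA-binding proteins with a PY-NLS, had 159, 94.4, 117 and 161 CPM in KO_alpha3 libraries 42, 50, 75 and 81, and 118, 111, 95.7 and 125 CPM in KO_beta libraries 398, 402, 406 and 411. It had 137, 102, 103 and 151 CPM in WT_alpha3 libraries 45, 54, 55 and 79, and 113, 124, 118 and 108 CPM in WT_beta libraries 399, 401, 410 and 415. The 4 highest libraries were 2 knockouts and 2 wild types of the first line, and every group overlapped every other. Tnpo2, a close relative with largely the same cargo, had 157, 197, 183 and 164 CPM in KO_alpha3 and 188, 175, 169 and 206 CPM in KO_beta, with libraries in the same order. In the wild types it had 142, 201, 206 and 140.0 CPM in WT_alpha3, and 174, 154, 174 and 184 CPM in WT_beta. The libraries that were highest for Tnpo1 were among the lowest for Tnpo2. Tnpo3, the receptor of SR splicing factors, had 154, 124, 138 and 153 CPM in KO_alpha3, 138, 135, 136 and 136 CPM in KO_beta, and 130.3 to 139.7 CPM in the 8 wild types. The highest and the lowest Tnpo3 library, at 154 and 124 CPM, were both KO_alpha3.

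Of the importins, Ipo4, which imports histones and the vitamin D receptor, had 128, 138, 137 and 133 CPM in KO_alpha3, 124, 124, 122 and 129 CPM in KO_beta, and 109 to 135 CPM in the wild types with a median of 118. Ipo5, an importer of ribosomal proteins and core histones, had 187, 153, 169 and 189 CPM in KO_alpha3, 154, 153, 156 and 158 CPM in KO_beta, and 141 to 199 CPM in the wild types with a median of 164. All 4 KO_beta libraries lay below that median, inside the wild-type range. Ipo9, known for carrying core histones and actin, had 216, 178, 201 and 223 CPM in KO_alpha3, 188, 179, 172 and 184 CPM in KO_beta, and 169 to 217 CPM in the wild types with a median of 180.0. Ipo13, which works in both directions and imports among others the exon junction proteins Magoh and Y14, had 103, 78.7, 87.4 and 111 CPM in KO_alpha3, 86.2, 84.2, 83.9 and 83.3 CPM in KO_beta, and 71.8 to 95.5 CPM in the wild types with a median of 83.3. Libraries 42 and 81 of KO_alpha3 were above all 8 wild types for Ipo13, and library 50 was in the lower part of their range.

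Ipo7 and Ipo8, relatives that import SMAD proteins among others, were at different levels but varied little. Ipo7 had 133, 111, 121 and 135 CPM in KO_alpha3, 109.8, 111, 103 and 125 CPM in KO_beta, and 106 to 121 CPM in the wild types with a median of 113. Ipo8, also linked to Argonaute proteins, had 55.5, 49.6, 53.0 and 52.6 CPM in KO_alpha3, 54.6, 50.1, 46.0 and 53.6 CPM in KO_beta, and 48.3 to 52.7 CPM in the wild types with a median of 50.6. The ratio of Ipo7 to Ipo8 CPM stayed between 2.01 and 2.57 over the 16 libraries. Ipo11, which imports the ubiquitin-conjugating enzyme UBE2E3 and the ribosomal protein RPL12, had 52.0, 43.4, 46.5 and 49.4 CPM in KO_alpha3, 41.1, 43.1, 43.7 and 49.3 CPM in KO_beta, and 39.9 to 52.5 CPM in the wild types with a median of 44.6.

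**Figure D2:**
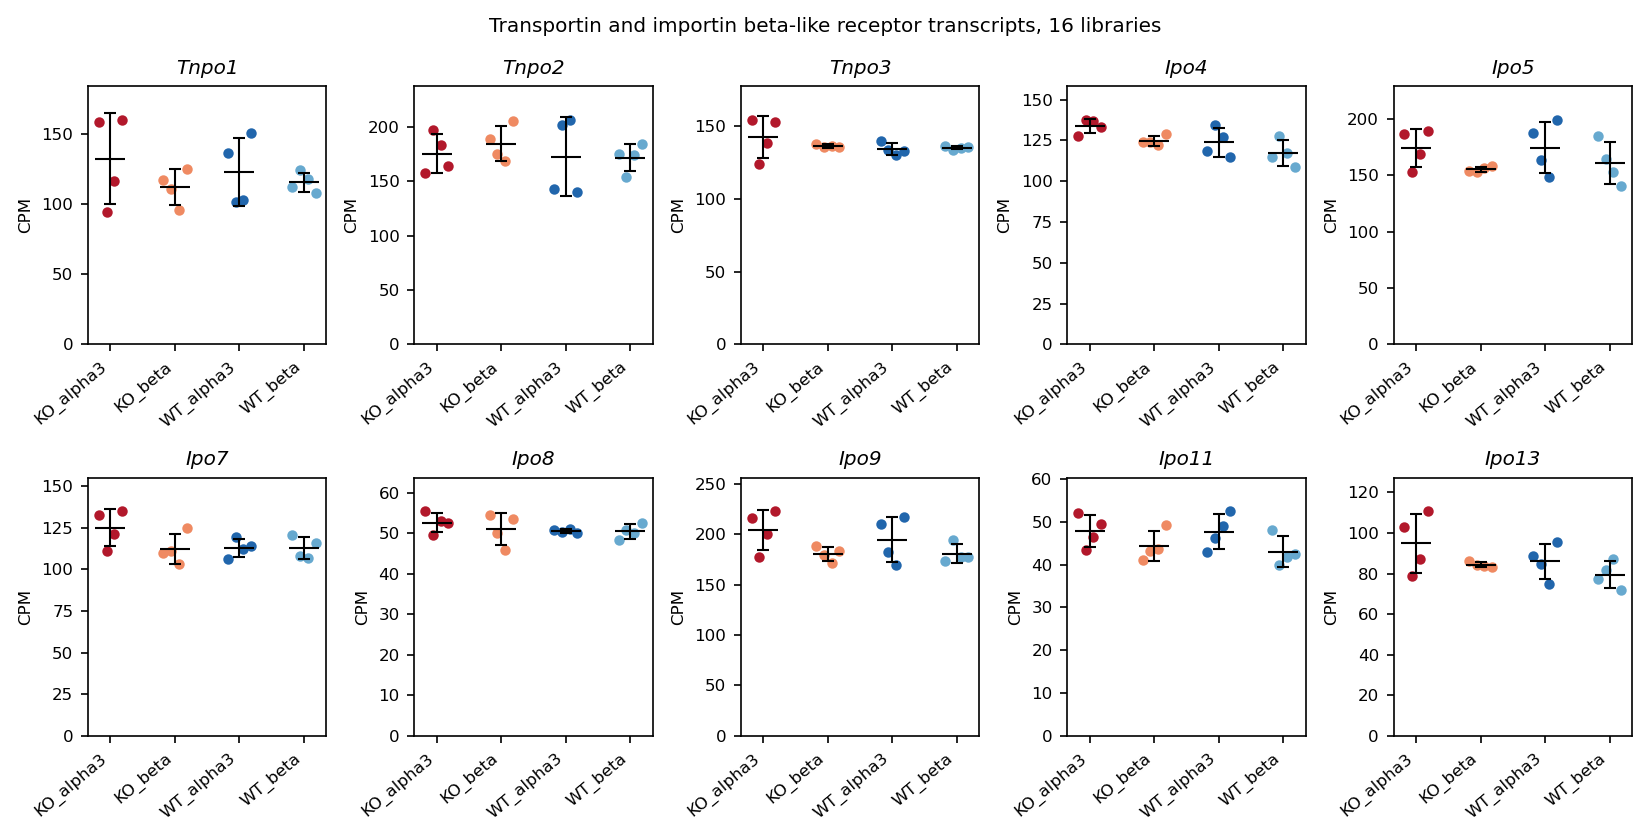
Level of each receptor transcript in CPM (vertical axes, from 0) by group, with 1 point per library and the mean and SD of the 4 libraries as a bar. The groups overlap for all 10 genes, and Tnpo1 and Tnpo2 spread most within KO_alpha3 and WT_alpha3.

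The spread between libraries of a group differed between the receptors. Tnpo1 had a within-group SD of 0.252 on the log2 CPM scale, above that of 81.6% of the fitted genes within 0.5 log2 units of its level, and Tnpo2 had 0.189, above 64.1%. At the other end, Ipo8 had 0.0700, above 4.01% of genes of similar level, Ipo4 0.0765, above 8.33%, and Tnpo3 0.0783, above 9.24%. The other 5 receptors ran from 0.102 for Ipo7 to 0.147 for Ipo5. The highest library was 1.70 times the lowest for Tnpo1, 1.47 times for Tnpo2 and 1.21 times for Ipo8.

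Loss of importin α3 left no receptor transcript past the threshold. In edgeR's quasi-likelihood test with Benjamini-Hochberg adjustment, 0 of the 10 receptors had an adjusted p under 0.05 between KO_alpha3 and the 8 wild types. Over all genes fitted, 0.00639% were called, a single gene, which was Kpna4 itself. Without KO_alpha3 library 50 the test called 124 genes and a DESeq2 test on all libraries called 128, with 0 receptors in both. The estimates were small and all 10 were above 0, with a median of 0.088 on the log2 scale, where 48.6% of all fitted genes were above 0 with a median of -0.0059. With library size as the only scaling the median of all genes was -0.038, and 9 of the 10 receptors were above 0, against 39.3% of all genes. Against WT_alpha3 alone 7 of the 10 were above 0, and 45.9% of all genes. At an unadjusted p under 0.05 there were 3 receptors, Ipo4, Ipo7 and Ipo13, against 10.8% of all genes. For 0 of the 10 did the KO_alpha3 and wild-type libraries separate without overlap, against 0.665% of all genes.

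The largest estimate was that of Ipo13, whose log2 fold change was 0.18 ± 0.08 (SE), with a 95% interval from 0.004 to 0.36 and an adjusted p of 0.454. Ipo4 differed by 0.14 ± 0.06, with an interval from 0.01 to 0.27 and an adjusted p of 0.425, and all 4 of its KO_alpha3 libraries were above the wild-type median. Ipo7 differed by 0.13 ± 0.06, with an interval from 0.002 to 0.26 and an adjusted p of 0.454. For Ipo13 and Ipo7, 3 of the 4 KO_alpha3 libraries were above the wild-type median. The transportins had wide intervals. Tnpo1 ran from -0.15 to 0.42 around an estimate of 0.14, Tnpo2 from -0.23 to 0.26 around 0.01, and Tnpo3 from -0.04 to 0.17 around 0.07. Single libraries moved the Tnpo1 estimate, which was 0.28 ± 0.13 (SE) without KO_alpha3 library 50, 0.20 without library 75 or without WT_alpha3 library 79, 0.05 without library 42 and 0.04 without library 81. Ipo5, Ipo8, Ipo9 and Ipo11 had estimates from 0.04 to 0.11 and adjusted p-values from 0.637 to 0.896.

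Marker levels of other tissues were as follows beside these estimates. All 21 skeletal muscle markers had a negative estimate in KO_alpha3, with a median log2 fold change of -1.55, as did the 20 spinal cord markers fitted, with a median of -2.34. The 13 liver and 12 epidermis markers fitted were all negative too, with medians of -3.37 and -1.71. None of these 4 lists had a gene past the adjusted threshold. Libraries 42 and 81, the highest of the KO_alpha3 libraries for Tnpo1, Ipo9 and Ipo13, had means over the cell cycle genes of 5.62 and 5.80 log2 CPM, against 4.64 and 5.03 in libraries 50 and 75. Without the 4 libraries highest in progenitor genes, which include both 42 and 81 and so leave 2 knockouts, Ipo13 differed by 0.07 and Ipo7 by 0.04 on the log2 scale, while Ipo4 differed by 0.18. With the cell cycle mean as a covariate Ipo13 differed by 0.17, Ipo7 by 0.13 and Ipo4 by 0.14, with adjusted p-values of 0.211, 0.265 and 0.183. Without the 4 libraries highest in markers of surrounding tissues, all of them wild types, Tnpo1 differed by 0.29, Ipo5 by 0.20, Ipo9 by 0.20 and Ipo13 by 0.24, Ipo4 and Ipo7 by 0.13 each and Tnpo2 by -0.13, and none of the 10 passed. Those 4 were also the wild types with the highest cell cycle means, from 5.38 to 6.35 log2 CPM, while KO_alpha3 libraries 42 and 81 stayed in. The part of either marker set in these estimates was not tested. In bulk tissue, fewer cells of a type and less RNA per cell cannot be told apart.

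Deletion of the importin β1 3′UTR left 0 of the 10 receptors past the threshold, and the same test called 0% of all genes. At an unadjusted p under 0.05 there were 0 of 10 receptors, against 2.23% of all genes, 349 in number, and a DESeq2 test called 1 gene, which was no receptor. None of the 10 separated KO_beta from the wild types without overlap, against 0.147% of all genes. The estimates were on both sides of 0, with 6 receptors above and 4 below and a median of 0.014 on the log2 scale, against 49.2% of all genes above 0. The directions rest on scaling: with library size alone, 3 receptors were above 0, against 40.6% of all genes. Tnpo2 had the highest estimate, a log2 fold change of 0.11 ± 0.11 (SE) with a 95% interval from -0.13 to 0.35. Ipo5 had the lowest, -0.10 ± 0.09 with an interval from -0.28 to 0.08, and all 4 KO_beta libraries lay below the wild-type median. For Tnpo3, Ipo4 and Ipo13 all 4 lay above it, and how often all 4 fall on 1 side over all genes was not counted. Tnpo1 had -0.08 ± 0.14, with an interval from -0.36 to 0.21. The tightest interval was that of Tnpo3, from -0.07 to 0.13. Adjusted p-values ran from 0.932 to 0.996 over the 10. The KO_beta libraries were also the most even, with cell cycle means from 4.53 to 4.92 log2 CPM. All 34 cell cycle genes had a negative estimate in KO_beta, with a median log2 fold change of -0.57 and none past the adjusted threshold. With the cell cycle mean as a covariate, Tnpo1 differed by 0.07, Tnpo2 by -0.01, Ipo5 by -0.002 and Ipo13 by 0.10 on the log2 scale, and none of the 10 passed.

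**Figure D3:**
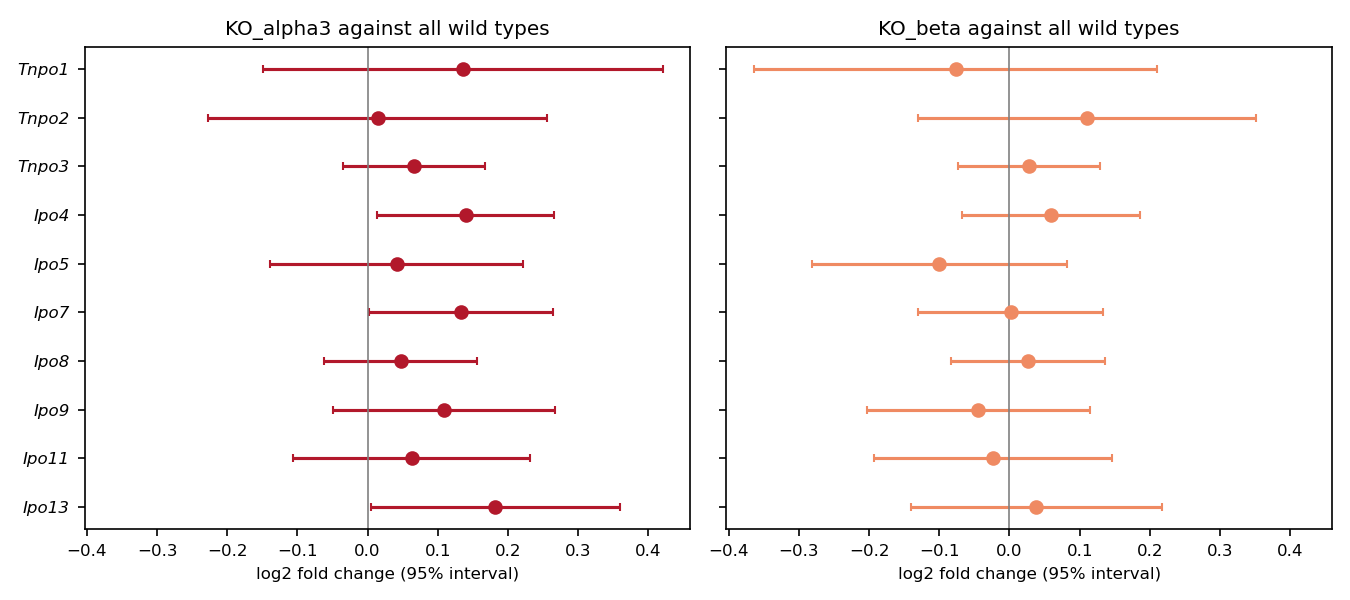
Log2 fold change with its 95% interval for the 10 receptors, in KO_alpha3 against all 8 wild types (left) and KO_beta against all 8 wild types (right). The estimates lie between 0.01 and 0.18 on the left and between -0.10 and 0.11 on the right, and none passed the adjusted threshold.

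The difference between the knockout effects, each taken against the wild types of its own line, was tested directly. It called 0 of the 10 receptors against 0.00639% of all genes, again only Kpna4 (3 genes without KO_alpha3 library 50 and 2 without library 75), with receptor estimates from -0.13 to 0.10 on the log2 scale. Sex cannot be told apart from the KO_beta effect in this contrast. Y-linked transcripts were clearly present in all KO_beta libraries and absent or nearly so in all of WT_beta. The 4 Y-linked genes had a median log2 estimate of -9.29 in it. Between WT_alpha3 and WT_beta, 0 of 10 receptors passed, against 0.0192% of all genes, which is 3 genes (7 without KO_alpha3 library 81 and 5 without library 50), and 0 of 10 had an unadjusted p under 0.05, against 5.27%. All 10 were nominally higher in WT_alpha3 with a median log2 difference of 0.11, where 55.9% of all genes were. With library size as the only scaling 4 of the 10 were below 0, where the median of all genes was -0.026. Ipo11 had the largest estimate, 0.17 ± 0.08 (SE) with an adjusted p of 0.95. The 4 Y-linked genes, with a median log2 difference of 8.35, did not pass the adjusted threshold here either. Their sum ran from 0.0428 to 146 CPM within KO_alpha3, a group of the same fit, so they are no guide to the receptors. A receptor without a call may still differ, as for Ipo11, whose 95% interval ran from -0.004 to 0.35. Line and sex cannot be told apart in this comparison, since no WT_beta library carried Y-linked transcripts.

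Within groups, 6 of the 10 receptors varied with the cell cycle genes. The slope of log2 level on a library's mean log2 CPM over 34 cell cycle genes was fitted with group as a term, and 50.4% of genes were called, 22.6% with a positive and 27.8% with a negative slope. The receptors, with 4 positive and 2 negative, were near that background, so their number says nothing particular about the family. Among relatives, the direction differed for Tnpo1 and Tnpo2, and how often it differs for other pairs of called genes was not counted. Tnpo1 had a slope of 0.29 ± 0.07 log2 units per log2 unit (SE, adjusted p = 0.00419, edgeR), with a 95% interval from 0.14 to 0.45. Tnpo2 had -0.30 ± 0.05 (adjusted p = 0.000103), with an interval from -0.39 to -0.20. The intervals of these close relatives lie on opposite sides of 0.

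Ipo5 rose with the cell cycle genes, with a slope of 0.20 ± 0.03 (adjusted p = 0.00015), as did Ipo9, with 0.14 ± 0.04 (adjusted p = 0.00973), and Ipo13, with 0.14 ± 0.05 (adjusted p = 0.0279). Ipo4 was called with a slope of -0.09 ± 0.03 (adjusted p = 0.0426), but this call held in only 2 of the 16 fits that each left out 1 library, and was lost with DESeq2 size factors, library size scaling or no filter. Ipo7 at 0.01 ± 0.05, Tnpo3 at 0.05 ± 0.03, Ipo11 at 0.04 ± 0.05 and Ipo8 at -0.03 ± 0.04 did not pass. The Ipo7 interval ran from -0.10 to 0.11. Under library size scaling the split over all genes was 4430 positive and 3555 negative, beside 3540 and 4344 with TMM, and that over the receptors 5 and 1, with Tnpo3 called at 0.10 and Ipo4 not called. The slopes of Tnpo1, Tnpo2, Ipo5, Ipo9 and Ipo13 kept their direction and their call under each scaling and with each library left out in turn.

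**Figure D4:**
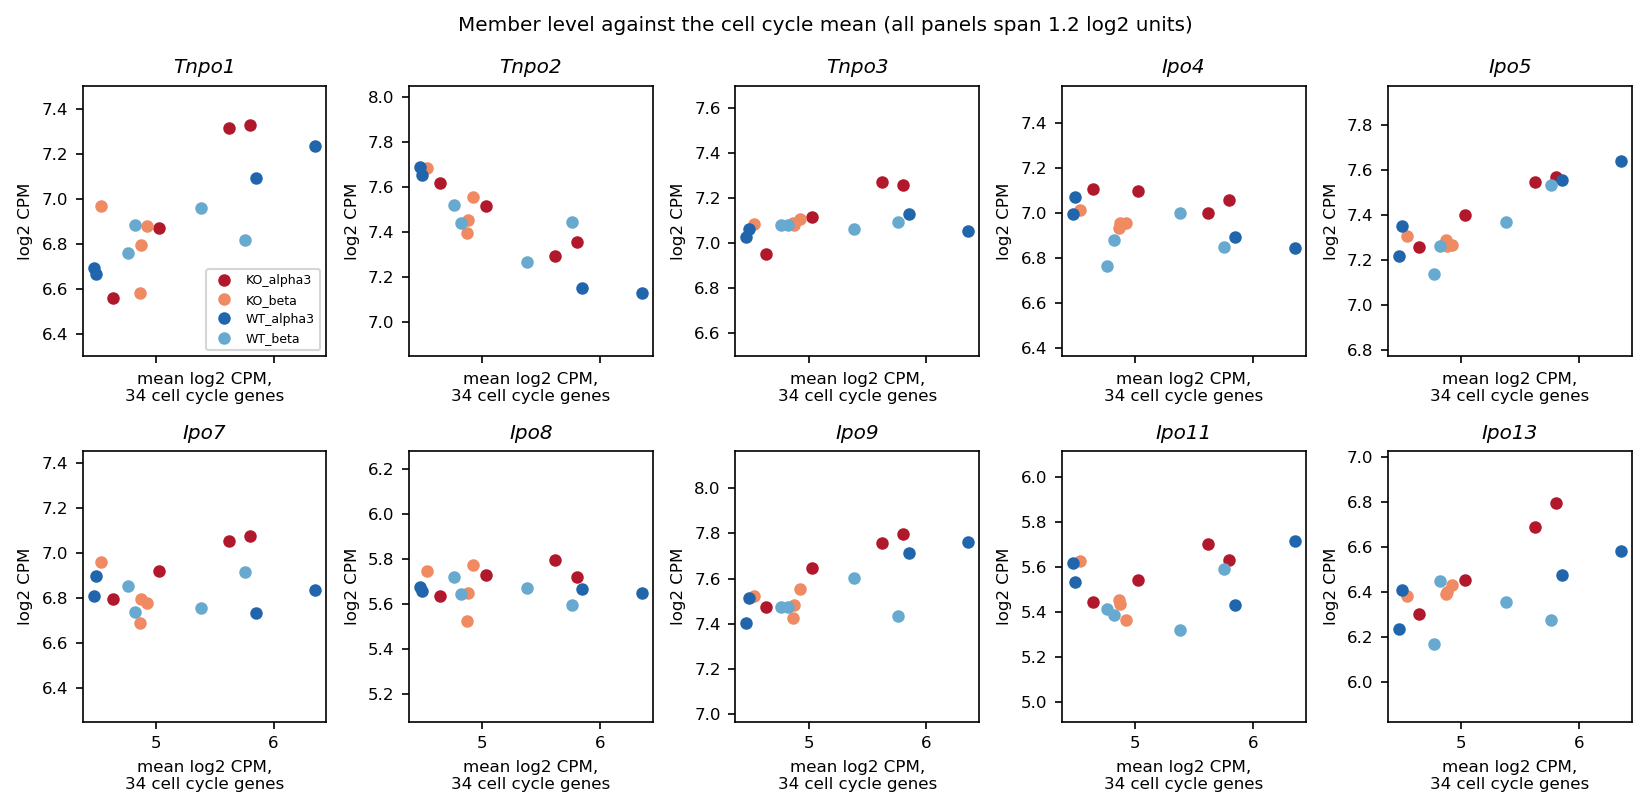
Log2 CPM of each receptor (vertical axes, each spanning 1.2 log2 units) against the mean log2 CPM of 34 cell cycle genes in the same library (horizontal axes), with 1 point per library coloured by group. Tnpo1 rises and Tnpo2 falls towards the right, where KO_alpha3 libraries 42 and 81 and WT_alpha3 libraries 45 and 79 lie between 5.62 and 6.35. WT_beta library 399 lies there too, at 5.76, but with Tnpo1 at 113 CPM and Tnpo2 at 174 CPM.

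These slopes rest on a few libraries. After seeing the data, the fit was repeated without the 4 libraries highest in progenitor and Notch genes, namely 42 and 81 of KO_alpha3 and 45 and 79 of WT_alpha3. It then called 913 genes and 0 of the 10 receptors, with slopes of 0.05 ± 0.14 for Tnpo1, -0.15 ± 0.10 for Tnpo2 and 0.30 ± 0.08 for Ipo5 (SE), the last with an adjusted p of 0.0512. In the 8 wild types alone, Tnpo1 at 0.25 ± 0.06, Tnpo2 at -0.27 ± 0.06 and Ipo5 at 0.22 ± 0.04 were called, and Ipo9 and Ipo13 were not. Without the 4 libraries highest in markers of surrounding tissues, also chosen after seeing the data, Tnpo1 had 0.56 ± 0.14, Tnpo2 -0.29 ± 0.08 and Ipo13 0.39 ± 0.09, and Tnpo3 was called with 0.25 ± 0.06. In that fit the cell cycle means were 4.49 and 4.47 log2 CPM in WT_alpha3 and 4.82 and 4.76 in WT_beta. They ran from 4.53 to 4.92 in KO_beta and from 4.64 to 5.80 in KO_alpha3, so these slopes rest mainly on the KO_alpha3 libraries.

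Other cell content moved along the same axis. As the cell cycle mean rose, 16 of 24 pan sensory neuron genes fell and 4 rose, with a median slope of -0.30, and 10 of 14 glial and Schwann precursor genes fell, with a median of -0.56. Of 8 erythroid genes fitted, 7 rose, and of 20 spinal cord genes, 8 rose. WT_alpha3 library 79, with the highest cell cycle mean of 6.35 log2 CPM, had a pan sensory mean of 7.94 and a glial mean of 5.59, and WT_alpha3 library 54, at 4.49, had 8.86 and 6.68. WT_alpha3 library 45 had a cell cycle mean of 5.85, a progenitor mean of 5.58 and a Tnpo1 level of 137 CPM. WT_beta library 399 had a cell cycle mean of 5.76, a progenitor mean of 4.65 and a liver marker mean of 7.14, with a Tnpo1 level of 113 CPM. Libraries with and without Y-linked transcripts were found among the 4 highest in Tnpo1. With the mean over markers of surrounding tissues as a covariate, chosen after seeing the data, 4 receptors had a called positive and 2 a called negative slope, with 0.39 ± 0.07 for Tnpo1 and -0.31 ± 0.05 for Tnpo2. The part of the neuronal and glial content in the slopes was not tested.

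The opposite slopes of the transportins gave a ratio that ranged more widely than either gene. Tnpo1 CPM divided by Tnpo2 CPM was 1.01, 0.480, 0.639 and 0.979 in KO_alpha3 libraries 42, 50, 75 and 81, and 0.625, 0.634, 0.567 and 0.609 in KO_beta libraries 398, 402, 406 and 411. It was 0.960, 0.504, 0.501 and 1.08 in WT_alpha3 libraries 45, 54, 55 and 79, and 0.646, 0.807, 0.680 and 0.590 in WT_beta libraries 399, 401, 410 and 415. The first line's libraries split into 4 between 0.960 and 1.08 and 4 between 0.480 and 0.639, with 2 knockouts and 2 wild types in each, while the second line's lay between 0.567 and 0.807. KO_alpha3 and KO_beta both overlapped the wild types, which ranged from 0.501 to 1.08 with a median of 0.663. The ratio does not depend on how libraries were scaled, because both genes are counted in the same library.

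**Figure D5:**
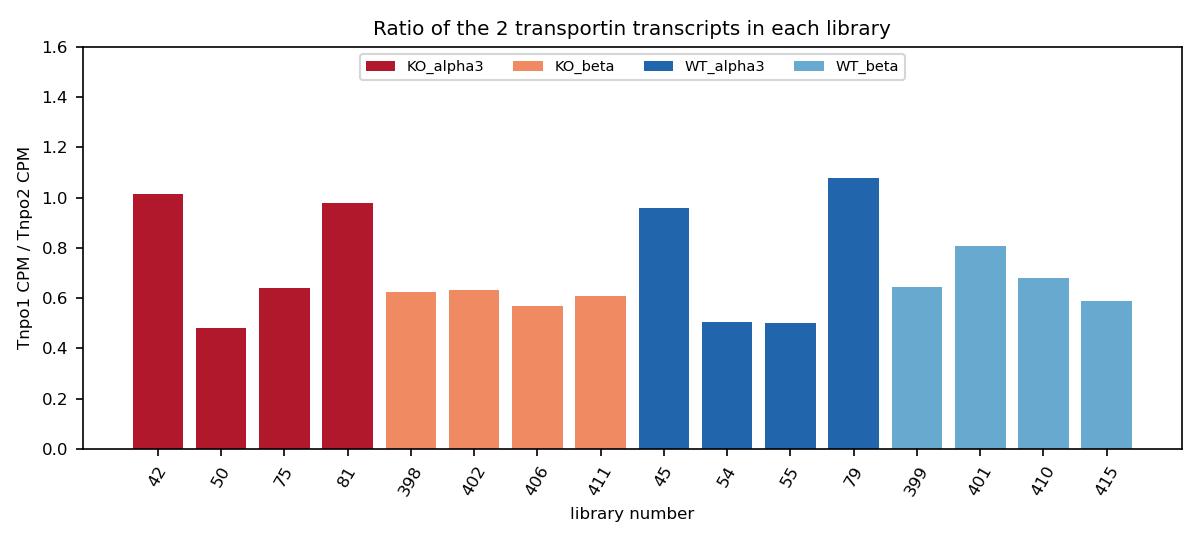
Tnpo1 CPM divided by Tnpo2 CPM (vertical axis, from 0) in each of the 16 libraries, coloured by group. Libraries 42 and 81 of KO_alpha3 and 45 and 79 of WT_alpha3 lie at 0.960 to 1.08, and the other 12 at 0.480 to 0.807.

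Each receptor's nearest companions among the fitted genes outside the family were found by Pearson correlation of log2 CPM over the 16 libraries, as a description without a test. Libraries share depth and cell content, which many genes follow. Tnpo1 was most like Cnot1, the scaffold of a deadenylase complex, with r = 0.961 and Spearman's rho = 0.918, and Ttll4, with r = 0.959. Tnpo2 was most like Dip2c, with r = 0.989 and rho = 0.985, and Atp8a1, a phospholipid flippase, with r = 0.977. Ipo5 was most like Mcm8 and Dck, a helicase of the minichromosome maintenance family and deoxycytidine kinase, with r = 0.952 for both. Ipo9 followed Pknox1 and Rbm10, with r = 0.968 for both, Ipo13 followed Bcar1 and Plcd1, with 0.961 and 0.941, and Tnpo3 followed Gtf3c4 and Tbpl1, with 0.942 and 0.935. Companions were weaker for Ipo7, at 0.889 for Gpalpp1 and 0.887 for Eif4g1, for Ipo8, at 0.875 for Zfp169 and 0.862 for Ccdc88a, and for Ipo4, at 0.874 for Hgs and 0.865 for Zfp319. Ipo11 had the weakest, Mppe1 at 0.813 and Gfm1 at 0.804.

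Promoters were read from RefSeq on GRCm38.p6 for all 10 receptors, from 250 bases before to 50 after the start. Tnpo1, Tnpo2, Ipo5 and Ipo9 have 2 promoters each, of which the first listed was used for GC content and both were searched for letters. GC content of the first promoter ran from 49.3% for Tnpo2 to 80.7% for Ipo5, with 76.3% for Tnpo1, against a median of 52.7% over 27025 genes. The E2F letters TTTCCCGC or TTTGGCGC, searched on both strands, were in promoters of 0 of the 10 receptors and of 1.80% of all genes. The CRE letters TGACGTCA and the NRF1 motif were also in none, against 2.03% and 1.07% of all genes. The GC box letters GGGCGG were in Tnpo1, Tnpo2, Ipo5, Ipo9 and Ipo13, and in 38.2% of all genes. The letters CCAAT were in Tnpo1, Tnpo2, Ipo5, Ipo9 and Ipo11, and in 41.1% of all genes. The ETS letters CCGGAAGT were in Tnpo3 and Ipo4 (4.31% of all genes), TATAAA in Ipo5 and Ipo7 (15.7%) and TTTGAA in Tnpo2, Ipo4 and Ipo7 (20.2%). A match is a description and shows no site in use.

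The cargoes and partners of these receptors were followed in lists chosen with results of these data known. In KO_alpha3 against the wild types, 0 of 14 PY-NLS cargoes of transportin 1 and 2 passed the adjusted threshold, with a median log2 fold change of 0.14 and 13 above 0. Hnrnpa1, with 0.23 ± 0.13 (SE), had the highest estimate, and Cirbp, a cold-inducible RNA-binding protein, had -0.26 ± 0.12 with an adjusted p of 0.452. Of 12 SR proteins and other cargoes of transportin 3, 0 passed, with a median of 0.10. Of 22 cargoes of the other receptors, 0 passed, with a median of 0.02, and Hif1a and Smad4 had 0.16 ± 0.06 and 0.18 ± 0.08 with adjusted p-values of 0.406 and 0.449. Among importin alpha subunits only Kpna4 passed, with -6.46 ± 0.13 and an adjusted p of 1.34e-14, and Kpna3, encoding importin α4, differed by 0.13 ± 0.05 with an adjusted p of 0.377. Among 10 other importin beta family receptors and exportins, and 8 Ran system genes, 0 passed. Kpnb1 differed by 0.24 ± 0.10 with an adjusted p of 0.434. In KO_beta against the wild types, 0 genes of these lists passed, and the medians were -0.06 for the PY-NLS cargoes and -0.08 for the transportin 3 cargoes. There Kpnb1 differed by 0.28 ± 0.10 with an adjusted p of 0.932, and all 4 KO_beta libraries were above the wild-type median.

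Along the cell cycle mean, most of the cargo transcripts rose. Of the 14 PY-NLS cargoes 12 rose and 0 fell, with a median slope of 0.29. Over all genes the shares were 22.6% and 27.8% in these directions, with a median slope of -0.0062. Hnrnpm and Hnrnpf, RNA-binding proteins of pre-mRNA processing, rose by 0.49 ± 0.06 and 0.39 ± 0.04 (SE). Tnpo1 rose as they did, and Tnpo2 fell. Of the 12 transportin 3 cargoes 11 rose and 0 fell, with a median of 0.27, among them Srsf1 with 0.35 ± 0.05 and Srsf2 with 0.25 ± 0.04, where Tnpo3 had 0.05 ± 0.03. Of the 22 cargoes of the other receptors 14 rose and 3 fell, and Rpl12, an Ipo11 cargo, rose by 0.37 ± 0.04. Of the 8 Ran system genes 4 rose, with Ran at 0.43 ± 0.04 and its exchange factor Rcc1 at 0.49 ± 0.05. Of the 10 other family members 6 rose and 1 fell, with the exportins Cse1l at 0.23 ± 0.04 and Xpo1 at 0.24 ± 0.05 and Kpnb1 at 0.25 ± 0.05. Among 5 importin alpha subunits fitted, Kpna2 rose by 0.42 ± 0.05 and Kpna6 fell by 0.11 with an SE of 0.03. Without the 4 libraries highest in progenitor genes, 1 of the 14 PY-NLS cargoes, 0 of the 12 transportin 3 cargoes, 1 of the 22 other cargoes, 2 of the 8 Ran system genes and 0 of the 10 other family members rose.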

How the data were processed

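PolyA RNA sequencing of dorsal root ganglia gave 16 libraries in 4 groups of 4. The authors deposited a table of raw counts, whole numbers of reads for each gene symbol, and every test used it. Per the submitters' processing notes, the tools were TopHat2 2.0.10, HTSeq 0.6.1p1, DESeq2 1.6.3, bcl2fastq 2.17.1.14 and cutadapt, and the build was mm10, with no roles stated. How genes were annotated, whether strand was used and how shared reads were treated is not given in the sources used here. A deposited table of normalized values was not used.

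Analysis was done with edgeR 4.0.16 in R 4.3.3. Libraries were scaled with TMM, genes were filtered by filterByExpr with a minimum count of 10 and a minimum total of 15, and the quasi-likelihood test was run on both sides, with p-values adjusted by Benjamini and Hochberg over 15641 genes at 0.05. CPM are counts relative to the TMM-scaled library total, and log2 CPM used a prior count of 2. The SE of a log2 fold change was its size divided by the square root of the test's F, and intervals are at 95%. Both knockout comparisons with the 8 wild types came from 1 model with 3 groups. Line, the difference of the knockout effects and the slope on the cell cycle mean came from models with 4 groups, and the slope's predictor is made from the same libraries. Loci, exon lengths and coding sequence came from GENCODE on mm10, promoters from RefSeq. The scripts were tested on simulated counts.

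The members and the gene lists were chosen with earlier results of these data known. Genes named beside the 10 receptors are the targeted Kpna4 and Kpnb1, genes among the 2 of lowest p per transport or cargo list and comparison, and the 2 genes most correlated with each receptor. Hnrnpa1 was named after its value was seen. Alternatives were other scalings, no filter, DESeq2 1.42.0, other controls, covariates and left-out libraries. For the slope, the surrounding tissue covariate, the fits without 4 libraries and the fit to the 8 wild types alone were chosen after seeing the data. Library totals ran from 19682595 to 26873361 counts, and the lowest count of any receptor in a library was 923.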

Additional observations from a re-analysis of the deposited data

How the results depend on the processing

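No paired analysis was possible because no replicate number is shared between groups. In every alternative to the comparisons of KO_alpha3, of KO_beta and of the wild types, 0 of the 10 receptors passed the threshold, the lowest adjusted p of any receptor being 0.116, 0.758 and 0.758. Of 260, 260 and 200 such values, 249, 226 and 186 kept their direction. Counts of genes were less stable: for KO_alpha3 the DESeq2 test called 128 genes (26 higher, 102 lower) and leaving out 1 library gave 1 to 124. For KO_beta the DESeq2 test called 1 gene and leaving out 1 library gave 0 to 0. Between the wild types it called 32, with a range of 2 to 7, and for the difference of the knockout effects it called 6, no filter called 2, and the range was 1 to 3. The cause was not tested.

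For the slope on the cell cycle mean, leaving out the 4 libraries highest in progenitor genes gave 913 genes and 0 receptors, and the 8 wild types alone gave 3 receptors. Other alternatives gave 5 or 6 receptors, and leaving out 1 library 5 to 6 receptors and 6367 to 8362 genes. Some slopes with all libraries lie outside the range with 1 library left out (Tnpo3, Ipo8, Ipo9 and Ipo13), and the cause was not tested.

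The estimates that reversed under an alternative, none of them called there, were as follows on the log2 scale. In KO_alpha3, library size scaling gave -0.014 for Tnpo2. The wild types of its own line gave -0.0030 for Tnpo2, -0.029 for Ipo5 and -0.022 for Ipo11. Leaving out the 4 libraries highest in surrounding tissues gave -0.13 for Tnpo2, and leaving out those highest in progenitor genes gave -0.071 for Tnpo1 and -0.027 for Tnpo3. With 1 library left out Tnpo2 ran from -0.036 to 0.074.

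In KO_beta, Ipo7 was -0.0086 with DESeq2 size factors, -0.0090 with no filter, -0.0082 with the DESeq2 test and -0.0074 with the groups alone. Library size scaling gave -0.0031 for Tnpo3, -0.028 for Ipo7 and -0.0042 for Ipo8. The wild types of its own line, which also differ from KO_beta in sex, gave 0.023 for Ipo9 and 0.066 for Ipo11. The cell cycle covariate gave 0.066 for Tnpo1, -0.0082 for Tnpo2 and 0.022 for Ipo9. Without the 4 libraries highest in surrounding tissues, Tnpo1 was 0.059, Tnpo2 -0.054, Ipo5 0.036, Ipo7 -0.017 and Ipo9 0.031. Without those highest in progenitor genes, Tnpo1 was 0.014, Ipo7 -0.019 and Ipo9 0.014. With 1 library left out Tnpo3 ran from -0.0011 to 0.030, Ipo7 from -0.065 to 0.032 and Ipo8 from -0.030 to 0.065.

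Between the wild types, library size scaling gave -0.020 for Tnpo2, -0.030 for Tnpo3, -0.018 for Ipo7 and -0.017 for Ipo8, and no filter gave -0.011 for Tnpo3. With 1 library left out Tnpo1 ran from -0.015 to 0.20, Tnpo2 from -0.069 to 0.10, Tnpo3 from -0.014 to 0.026 and Ipo7 from -0.017 to 0.055. Among slopes, Ipo8 was 0.026 with library size scaling and 0.057 without the libraries highest in surrounding tissues, Ipo4 was 0.051 without those highest in progenitor genes and Ipo7 was -0.0066 in the 8 wild types alone. With 1 library left out Ipo7 ran from -0.0082 to 0.064 and Ipo8 from -0.019 to 0.014.

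At 19682595 or more counts per library each receptor had at least 923 counts, and each group had 4 libraries.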
